A study of Mus musculus with 8 samples.

Results

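The genes described here are 10 nuclear genes for chaperones and proteases of the mitochondrial matrix and inner membrane, chosen by name: Hspd1, Hspe1, Hspa9, Dnaja3, Lonp1, Clpp, Clpx, Yme1l1, Afg3l2 and Spg7. They are 10 of the 24460 genes counted in mouse embryonic fibroblasts (MEFs) exposed to RHPS4, and all 10 passed the filter on low counts, as did 14296 genes in all. At 10 µM RHPS4 the mRNAs of the mitochondrial Hsp70 Hspa9 and of its J-protein partner Dnaja3 rose over untreated cells, by 1.35-fold and 1.40-fold. The chaperonin pair Hspd1 and Hspe1 had its highest mean at 2 µM and lay within the untreated range at 10 µM. None of the differences of this pair passed the test. The protease Lonp1 rose between 2 and 10 µM, whereas no change of Clpp, Clpx, Yme1l1, Afg3l2 or Spg7 passed the test in any of the 3 comparisons.

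Nearly all mitochondrial proteins are made in the cytosol and enter the organelle unfolded. In the matrix, mitochondrial Hsp70 pulls them in and folds them with the help of J-proteins and nucleotide exchange factors, and many are then folded inside the chamber of the Hsp60 and Hsp10 chaperonin. Proteins that do not fold or do not find a partner are degraded by ATP-dependent proteases, LONP1 and CLPXP in the matrix and the m-AAA and i-AAA proteases of the inner membrane. Genes of this set are the classical readout of the mitochondrial unfolded protein response, whose regulators in mammals include ATF5, ATF4, CHOP and HSF1.

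RHPS4 is a small molecule that binds G-quadruplexes, folded structures of guanine-rich DNA or RNA, and the study asked how cells respond to it when mitochondrial DNA (mtDNA) is its target. All libraries came from wild type MEFs grown in high-glucose medium with pyruvate, with RHPS4 at 0 µM (3 libraries), 2 µM (3 libraries) or 10 µM (2 libraries); the labels list 2 exposure times for the whole study and do not say which applies here, nor whether replicates were separate cultures, so that p values measure the spread between libraries. Nuclear ribosomal RNA was removed from total RNA before strand-specific libraries were read as 75 bp pairs, and the files hold fragment counts per gene, with totals from 10455965 to 26688121 per library. The 3 counts taken as the detection floor were 0.119 to 0.311 CPM, the count scaled to library size, which covers counting error only.

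The first 0 µM library, the one with the smallest total, stood apart from the other 2. A chi-square of its counts per degree of freedom was 17.6 and 23.4 against them, whereas those differed by 3.76. The third 2 µM library gave 11.7 and 6.32 against the first and the second, which differed by 4.13. The 2 libraries at 10 µM differed by 10.1. The 39 mtDNA features took 13.7% ± 0.625 (SD, n = 3) of all counts in untreated cells, 7.97% ± 0.488 (SD, n = 3) with 2 µM RHPS4 and 5.82% ± 0.701 (SD, n = 2) with 10 µM, in groups that did not overlap. Levels below are CPM scaled by edgeR's trimmed mean of M values (TMM). All 10 fibroblast markers checked were detected. Their summed level was 13190 to 13750 CPM in untreated cells, 11880 to 12250 CPM at 2 µM and 11620 to 12280 CPM at 10 µM. In this sum both doses lay below the untreated libraries. Col3a1 and Pdgfrb fell at both doses, but the markers did not all move alike. Mean Postn was 212 CPM at 0 µM, 174 at 2 µM and 244 at 10 µM, and mean Vim was 3689, 3872 and 3518. The part of the shift in the sum in the results below was not tested. By contrast the summed markers of epithelial, endothelial, macrophage, skeletal muscle and pluripotent cells stayed between 0.617 and 10.2 CPM in every library. In bulk RNA, a loss of cells with a high level and a lower level per cell cannot be told apart.

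The promoters of 8 of the 10 genes were read from RefSeq windows on GRCm38.p6, the assembly also called mm10, each from 250 bases before to 50 bases after an annotated start. Hspd1 and Hspe1 lie head to head on chromosome 1, with Hspd1 on the minus strand at 55077835 to 55088243 and Hspe1 on the plus strand at 55088132 to 55091307 in GENCODE. Between a RefSeq start of Hspd1 at 55087932 and that of Hspe1 at 55088148 lie 215 bases, which hold one heat shock element, searched as GAANNTTC on both strands, a palindrome that is found once and counted for either strand. The element is shown with its flanks because it lies between the starts of both genes, in capitals within the 30 bases at chr1:55088053-55088082 (plus strand), which GENCODE places in the first exon of a longer Hspd1 transcript.
Hspd1 and Hspe1: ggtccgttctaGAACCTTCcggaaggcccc
The letters searched, GAANNTTC, are in 7.86% of all 32851 promoter windows. This share is not that of the longer stretch shown, and longer forms of the element were not searched. The 250 bases before the starts of Lonp1 and Dnaja3 are shown because these were the 2 genes that rose between 2 and 10 µM. In Lonp1, at chr17:56626904-56627153 (minus strand, outside any GENCODE gene), capitals mark the stretch covered by 4 overlapping matches to a G-quadruplex pattern on the complementary strand, each of 4 runs of 3 or more G with loops of 1 to 7 bases.
Lonp1: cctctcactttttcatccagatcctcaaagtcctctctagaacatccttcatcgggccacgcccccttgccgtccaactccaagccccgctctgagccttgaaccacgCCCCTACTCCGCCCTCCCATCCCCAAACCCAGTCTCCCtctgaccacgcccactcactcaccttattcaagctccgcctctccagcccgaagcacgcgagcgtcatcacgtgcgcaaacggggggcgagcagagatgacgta
In Dnaja3, at chr16:4683820-4684069 (plus strand, in no GENCODE exon but inside the span of a longer Dnaja3 model), capitals mark the motif CCAAT.
Dnaja3: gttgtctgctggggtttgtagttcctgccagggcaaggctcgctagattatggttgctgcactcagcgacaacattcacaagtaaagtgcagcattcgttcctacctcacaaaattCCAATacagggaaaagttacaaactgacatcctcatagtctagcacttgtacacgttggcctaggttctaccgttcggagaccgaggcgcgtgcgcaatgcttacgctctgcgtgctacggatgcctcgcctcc
The G-quadruplex pattern occurs in 18.6% of all windows and, among the 8 genes, in those of Lonp1, Clpx and one of the windows of Hspd1. CCAAT occurs in 37.4% of all windows and in those of Dnaja3, Clpx, Yme1l1 and the other window of Hspd1. The composite C/EBP-ATF response element bound by ATF4 and CHOP, searched as TGATGNAAT, is in 0.965% of all windows and in none of those of the 8 genes, which says only that these letters are absent from the windows.

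The set spanned a wide range of levels. Per kilobase of merged exons in untreated cells, Hspd1 had 240.1 ± 43.7 CPM (SD, n = 3), Hspa9 206 ± 16.1 and Hspe1 103.8 ± 21.1, so that all 3 lay at or above the 97.7th percentile of 13759 genes. Hspd1 and Hspa9 did not differ beyond their spread, whereas every Hspe1 library lay below every Hspa9 library. The proteases were lower, with 38.4 ± 4.59 CPM per kb for Clpp, 34.2 ± 1.56 for Lonp1, 28.0 ± 1.87 for Yme1l1, 18.7 ± 1.45 for Spg7, 12.3 ± 0.554 for Clpx and 5.85 ± 0.902 for Afg3l2. Dnaja3, at 12.3 ± 0.832 CPM per kb, stood with Clpx, and the ranges of Clpp and Lonp1 also overlapped. Afg3l2 was the lowest, at the 54th percentile. The summed level of the 10 mRNAs was 2178 to 2616 CPM at 0 µM, 2489 to 2856 CPM at 2 µM and 2739 to 2765 CPM at 10 µM, and only the 10 µM libraries lay wholly above the untreated ones.

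**Figure D1:**
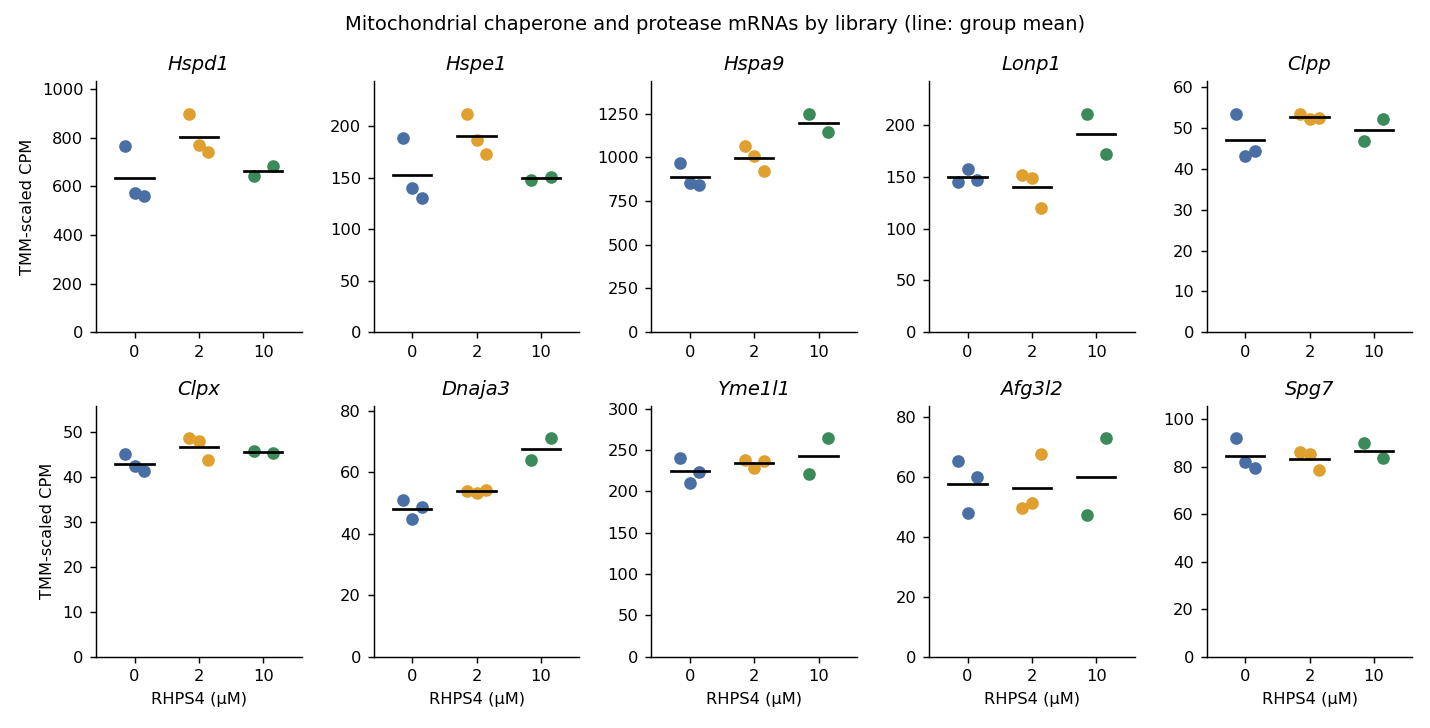
TMM-scaled CPM (counts scaled to library size, axes from 0) of each of the 10 mRNAs in each library by RHPS4 dose, with points for libraries and lines for group means. Both 10 µM libraries lie above all others for Hspa9, Dnaja3 and Lonp1, while Hspd1 and Hspe1 have their highest means at 2 µM, and the first 0 µM library of each is above the other untreated ones.

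The comparison of 2 µM with 0 µM asks about the dose at which the mtDNA share of counts fell while fewer genes passed the test than at 10 µM. The chaperonin pair had the 2 largest differences of the set. Hspd1, which encodes the Hsp60 ring, had 768, 574 and 562 CPM in the untreated libraries and 898, 770 and 741 CPM in the 2 µM libraries. The groups overlapped only through the first untreated library, which was as high as the 2 µM libraries. The difference was 0.34 on the log2 scale (SE 0.12, 95% interval 0.08 to 0.60) with an adjusted p of 0.134 by edgeR's quasi-likelihood test with Benjamini-Hochberg adjustment.

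Hspe1, the Hsp10 lid of the same chamber, went the same way. It had 188, 140 and 130 CPM in untreated cells and 212, 187 and 173 CPM at 2 µM, and again the first untreated library alone made the groups overlap. The log2 difference was 0.32 (SE 0.125, edgeR adjusted p = 0.167).

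In this comparison 0 of the 10 mRNAs passed an adjusted p of 0.05 in edgeR, 2 had an unadjusted p under 0.05 (Hspd1 and Hspe1), as did 21.3% of all tested genes, and DESeq2 also called 0. Among all tested genes 1.51% rose and 2.65% fell, and 0.497% were differentially expressed genes (DEGs), which the study defined by a fold change above 1.5 and an adjusted p below 0.01. The median log2 fold change of the 10 was 0.15, beside -0.01 over all genes, and 7 of the 10 lay above 0. Without the first 0 µM library Hspd1, Hspe1 and Clpp rose, by 0.51, 0.50 and 0.28 on the log2 scale (edgeR adjusted p = 0.0066, 0.00659 and 0.035), in a fit in which 7.63% of all genes rose and 6.46% fell. The part of that library in the main result was not tested further.

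The other members moved less at 2 µM. Dnaja3 was the one gene whose 2 µM libraries (53.2 to 54.3 CPM) all lay above the untreated ones (44.7 to 51.1 CPM), with a log2 difference of 0.16 (edgeR adjusted p = 0.242). Clpp, the peptidase of CLPXP, differed by 0.18, Hspa9 by 0.17 and Clpx, the unfoldase of CLPXP, by 0.13. Yme1l1, Spg7, Afg3l2 and Lonp1 had log2 differences between -0.10 and 0.06. The widest of these intervals, that of Afg3l2, ran from -0.40 to 0.35, so that a change within it was not detectable.

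**Figure D2:**
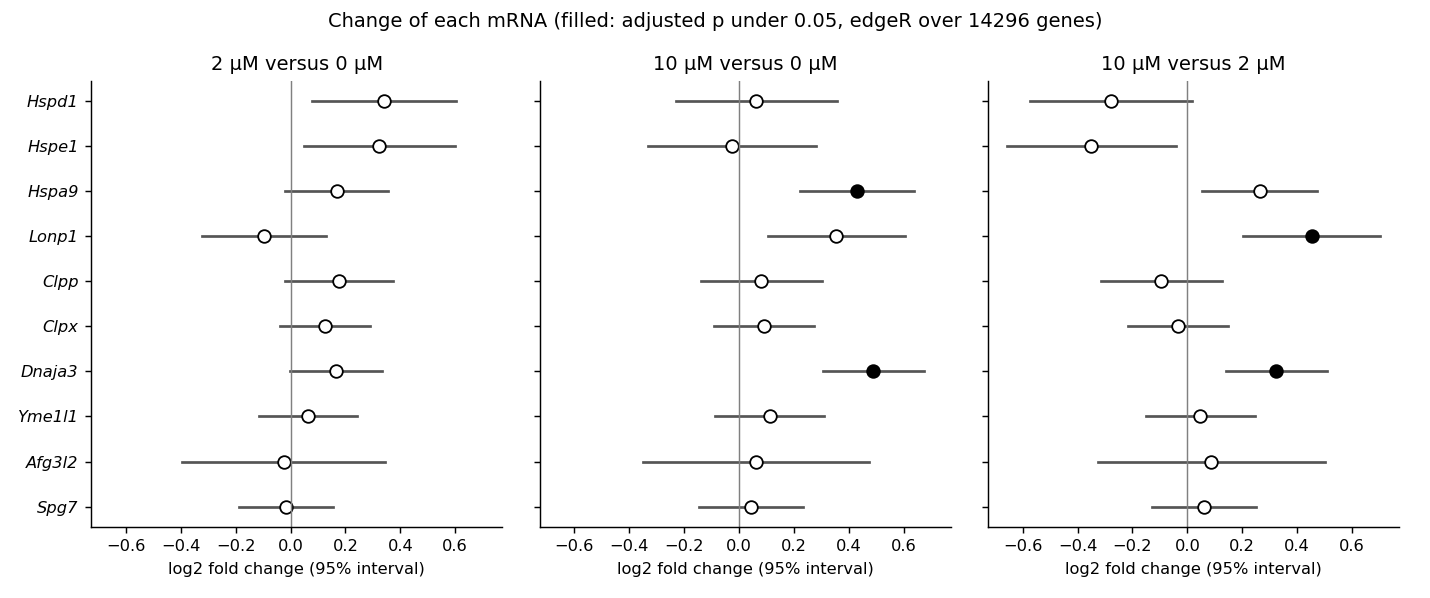
Log2 fold change of each of the 10 mRNAs in the 3 dose comparisons, with 95% intervals from edgeR's fit and filled points for an adjusted p under 0.05. None is filled at 2 µM against 0 µM, Hspa9 and Dnaja3 are at 10 µM against 0 µM, and Lonp1 and Dnaja3 are at 10 µM against 2 µM.

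At 10 µM the mRNAs of mitochondrial Hsp70 and of its J-protein rose. Hspa9 encodes mitochondrial Hsp70 (mortalin), the motor of protein import, and lies on chromosome 18 at 34937414 to 34954357 (GRCm38, minus strand). It had 968, 854 and 842 CPM in untreated cells, 1064, 1007 and 921 CPM at 2 µM and 1249 and 1144 CPM at 10 µM. Both 10 µM libraries were above every other library, and the 2 µM libraries overlapped the untreated ones. The mRNA rose by 0.43 on the log2 scale over 0 µM (SE 0.095, 95% interval 0.22 to 0.64, edgeR adjusted p = 0.0129). The adjusted p was 0.0595 and 0.0547 without the second and the third 0 µM library, and 0.0985 and 0.0514 without the first and the second 10 µM library, with log2 differences from 0.34 to 0.47 over all libraries left out in turn.

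Dnaja3 encodes a J-protein that stimulates mitochondrial Hsp70, and it had the largest change of the set at 10 µM. Its GENCODE model lies on chromosome 16 at 4639989 to 4707695 (plus strand) and shares 153 exonic bases with Coro7 on the opposite strand and 160 with Vasn on the same strand, so that some of its fragments could belong to either neighbour; the strand setting of the counting is not given in the sources used here. Dnaja3 had 51.1, 44.7 and 48.8 CPM at 0 µM, 54.0, 53.2 and 54.3 CPM at 2 µM and 64.0 and 71.0 CPM at 10 µM. The 3 dose groups did not overlap, and their order followed the dose. It rose by 0.49 on the log2 scale from 0 to 10 µM (SE 0.0837, 95% interval 0.31 to 0.67, edgeR adjusted p = 0.00354), and without the second 10 µM library by 0.39 with an adjusted p of 0.0671.

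Lonp1 encodes the main ATP-dependent protease of the matrix, which also degrades mtDNA-binding proteins, and lies on chromosome 17 at 56614297 to 56626887 (minus strand). It had 145, 157 and 146 CPM in untreated cells, 151, 148 and 120 CPM at 2 µM and 211 and 172 CPM at 10 µM. The 10 µM libraries were above all others, but they also differed more from each other than the untreated libraries did. Against 0 µM the log2 difference was 0.36 (SE 0.114, 95% interval 0.11 to 0.61, edgeR adjusted p = 0.0604), and without the third 2 µM library, which is in neither group but shares the estimate of the spread, the adjusted p was 0.0408.

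The chaperonin mRNAs lay within their untreated range at 10 µM. The top of each range was the first 0 µM library, and the 10 µM libraries lay above the other untreated ones. Hspd1 had 643 and 682 CPM there, within the untreated range, and a log2 difference from 0 µM of 0.06 (95% interval -0.23 to 0.36, edgeR adjusted p = 0.792). Hspe1 had 148 and 151 CPM, also within the untreated range, and a log2 difference of -0.03 (95% interval -0.33 to 0.28), or 0.19 when libraries were scaled by total counts alone.

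In all, 2 of the 10 rose and 0 fell between 0 and 10 µM, where 6.81% of all tested genes rose and 7.11% fell. None of the 10 was a DEG, as were 3.09% of all genes; 3 had an unadjusted p under 0.05, beside 29.4% of all genes, and DESeq2 also gave 0 DEGs among them. The median log2 fold change of the 10 was 0.09 beside 0.02 over all genes. With scaling by total counts alone the median of all genes moved to 0.23, 26.3% of all genes rose and 2.29% fell, and 7 of the 10 rose. Without the second 10 µM library none of the 10 passed, when 2.15% of all genes rose and 2.24% fell. The comparisons of 2 µM and 10 µM with 0 µM share their untreated libraries and are given side by side only.

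Between the 2 doses, Lonp1 and Dnaja3 rose. Lonp1 rose by 0.45 on the log2 scale from 2 to 10 µM (SE 0.114, 95% interval 0.20 to 0.70, edgeR adjusted p = 0.0154), and without the first 10 µM library, its highest, the difference was 0.26 with an adjusted p of 0.199. Dnaja3 rose by 0.33 (SE 0.084, edgeR adjusted p = 0.0175). Its adjusted p was 0.0501 and 0.0657 without the first and the second 2 µM library, 0.228 without the second 10 µM library, 0.056 with DESeq2 and 0.0547 with no filter on low counts.

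The chaperonin pair lay below its 2 µM level, and Hspa9 above it. Both 10 µM libraries of Hspd1 and of Hspe1 were below all their 2 µM libraries, by 0.28 and 0.35 on the log2 scale, with edgeR adjusted p values of 0.161 and 0.0957. For Hspe1 the adjusted p was 0.0329 with DESeq2, 0.0417 with no filter, 0.0212 with only the 2 groups compared and 0.0189 with the replicate number as a block. Hspa9 differed by 0.26 (edgeR adjusted p = 0.0675, and 0.0498 when 10 counts were required in every library). Without the first 0 µM library, Hspd1, Hspe1 and Hspa9 passed too, with adjusted p values of 0.0194, 0.00664 and 0.0434, so that 5 of the 10 differed in a fit in which 11.8% of all genes rose and 17.2% fell.

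In all, 2 of the 10 rose and 0 fell from 2 to 10 µM, where 11.5% of all tested genes rose and 11.9% fell. None was a DEG, beside 5.51% of all genes; 4 had an unadjusted p under 0.05, beside 36.5% of all genes, and DESeq2 also gave 0 DEGs. The median of the 10 was 0.05, beside 0.03 over all genes.

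The remaining proteases stayed within narrow ranges. Clpp, on chromosome 17 at 56990305 to 56996188, had 43.2 to 53.5 CPM over all 8 libraries and Clpx, on chromosome 9 at 65294260 to 65330658, had 41.3 to 48.6 CPM. Both 10 µM libraries of Clpx lay above the untreated ones, but only by a log2 difference of 0.09 (95% interval -0.09 to 0.27). Yme1l1, the i-AAA protease that faces the intermembrane space, lies on chromosome 2 at 23156369 to 23199260 and had 210 to 264 CPM, with a log2 difference of 0.11 between 10 and 0 µM (95% interval -0.09 to 0.31).

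Afg3l2 and Spg7 encode subunits of the m-AAA protease, which faces the matrix and matures a ribosomal protein of the mitochondria. Spg7, on chromosome 8 at 123062942 to 123097760, was among the steadiest of the set, with 78.5 to 91.9 CPM and log2 differences of -0.02, 0.04 and 0.06 in the 3 comparisons. Afg3l2, on chromosome 18 at 67404764 to 67449172, had the widest 95% interval of the set in each comparison. It had 65.3, 47.9 and 60.0 CPM at 0 µM, 49.8, 51.4 and 67.6 CPM at 2 µM and 47.4 and 72.9 CPM at 10 µM, so that the spread between replicates exceeded any difference between doses, and its 95% interval at 10 against 0 µM ran from -0.35 to 0.47.

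The ratio of partner mRNAs within a library does not depend on scaling between libraries. Hspe1 to Hspd1, the lid to the ring, held at a log2 count ratio of -2.06, -2.07 and -2.15 on average at 0, 2 and 10 µM, with a full range of -2.17 to -2.03 over the 8 libraries. Both 10 µM libraries lay below all others, by 0.09 from the untreated mean (p = 0.2 by a two-sided exact permutation test, which cannot give less with 3 against 2 libraries). The models of Hspd1 and Hspe1 share 112 exonic bases on opposite strands, and the strand setting of the counting is not given. Some of their fragments could therefore belong to either gene. Clpp to Clpx had means of 0.13, 0.18 and 0.12, with overlapping libraries. Spg7 to Afg3l2 had means of 0.56, 0.58 and 0.56, but ran from 0.20 to 0.92 within the 10 µM group alone. The 3 pairs thus showed no shift beyond 0.09 log2 units at either dose, although for Spg7 to Afg3l2 a shift of 0.33, its pooled SD, would be within the spread.

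Hspa9 was also set against Hspa8, the constitutive Hsp70 of the cytosol. The log2 ratio of Hspa9 to Hspa8 was -1.72, -1.53 and -1.54 in the untreated libraries, -1.67, -1.58 and -1.78 in those with 2 µM RHPS4, and -0.58 and -0.85 in those with 10 µM. The 10 µM libraries stood clear of the other 6, with a mean 0.88 above 0 µM and 0.96 above 2 µM (p = 0.2 in each by the same exact permutation test, its lowest possible value, and 0.6 adjusted over the 12 ratio comparisons). Hspa8 itself fell from 2701 ± 422 (SD, n = 3) to 1966 ± 141 (SD, n = 2) CPM between 0 and 10 µM, by 0.46 on the log2 scale (edgeR adjusted p = 0.0334). The third Hsp70, Hspa5 of the endoplasmic reticulum, had a log2 difference of 0.09 (edgeR adjusted p = 0.544).

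Other mitochondrial chaperones showed scattered changes. At 2 µM, 1 of 12 rose, Dnajc19 of the import motor (0.34, SE 0.0779, edgeR adjusted p = 0.0374), beside 1.51% of all genes. The median of the list was 0.19. Without the first 0 µM library 6 of 12 differed, beside 14.1% of all genes. Leaving out any other library of the 2 groups left 0, beside 0.519% to 1.99% of all genes. At 10 µM the list median was 0.13. Here 2 of 12 rose over 0 µM, beside 6.81% of all genes, the disaggregase Clpb (0.31) and the scaffold protein Stoml2 (0.27). Neither passed in DESeq2, with the replicate block or with only the 2 groups compared. Both also missed the threshold without the second or the third 0 µM library, any 2 µM library or the second 10 µM library (edgeR adjusted p from 0.0617 to 0.449 for Clpb and from 0.065 to 0.224 for Stoml2), and Stoml2 without the first 10 µM library (0.169). From 2 to 10 µM, where 11.5% of all genes rose and 11.9% fell, the iron-sulfur co-chaperone Hscb rose (0.73). Phb, a prohibitin that forms rings around the m-AAA protease (-0.50), and Grpel2 (-0.32) fell. Of these calls, that of Phb was lost without the first 10 µM library (edgeR adjusted p = 0.0737), that of Grpel2 without the first or the second 2 µM library or either 10 µM library (0.0718 to 0.107) and with total counts only (0.165), and that of Hscb without the second 0 µM, the first or the third 2 µM or the second 10 µM library (0.0577 to 0.259). Between 0 and 10 µM the nucleotide exchange factors of Hspa9 had log2 differences of -0.03 (Grpel1, 95% interval -0.25 to 0.20) and -0.12 (Grpel2, -0.33 to 0.08), and Phb2 one of 0.03.

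None of 14 other mitochondrial proteases and peptidases passed the edgeR test in any comparison. At an unadjusted p under 0.05 there were 4 at 2 against 0 µM, beside 21.3% of all genes. In the other comparisons there were 0, beside 29.4% (10 against 0 µM) and 36.5% (10 against 2 µM). DESeq2 called 0 in all 3. The list medians were 0.12 and 0.07 for the comparisons with 0 µM and -0.11 for 10 against 2 µM. Oma1, the stress-activated inner membrane protease, had a log2 difference of 0.22 at 10 against 0 µM (95% interval -0.03 to 0.47) and Htra2, an intermembrane space protease, 0.07.

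Atf5 and Ddit3 had larger log2 differences between 0 and 10 µM than any of the 10 chaperone and protease mRNAs. Atf4 was also above the largest of the 10, Dnaja3 at 0.49, but by less than its SE. Atf5, a transcription factor of the mitochondrial unfolded protein response, had 19.6, 17.9 and 20.2 CPM at 0 µM, 17.0 to 19.2 CPM at 2 µM and 47.7 and 40.9 CPM at 10 µM. It rose by 1.20 on the log2 scale from 0 to 10 µM (SE 0.103, edgeR adjusted p = 3.18e-05), and Ddit3, which encodes CHOP, by 1.32 (SE 0.13, edgeR adjusted p = 8.49e-05). Atf4, the effector of the integrated stress response, rose by 0.56 (SE 0.0938, edgeR adjusted p = 0.00326). Of the 7 regulators and relay genes tested these 3 rose and 0 fell at 10 µM, where 6.81% of all genes rose. The median over the 7 was 0.15. This list was chosen with earlier results of these data known, so that the count is no independent evidence. At 2 µM 0 of the 7 passed in edgeR or DESeq2, with 3 at an unadjusted p under 0.05, beside 21.3% of all genes. The median was then 0.00. Hsf1, the heat shock factor, fell by 0.27 from 2 to 10 µM (edgeR adjusted p = 0.0232), a call lost without the first or the second 2 µM or the second 10 µM library (0.052 to 0.0978) and with total counts only (0.184).

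Most targets of the integrated stress response rose at 10 µM, which was known from these data when the list was drawn up, so that the count is no independent evidence. Of 13 tested, 11 rose and 0 fell against 0 µM, where 6.81% of all genes rose, with a median log2 fold change of 1.16; Ddit4 (-0.06) and Vegfa (0.04) did not pass, and Gdf15 was below the filter on low counts. Of the same 13, 12 rose against 2 µM, where 11.5% of all genes rose, with a median of 1.04. The 4 with the smallest p against 0 µM were Slc7a11, a cystine transporter (1.80), Aldh1l2, a mitochondrial folate enzyme (1.75), Chac1, which degrades glutathione (2.05), and Asns, asparagine synthetase (1.16). Fgf21, with 0 to 3 counts in the untreated libraries and 16 and 11 at 10 µM, was among the 11, and its fitted value depends on the prior count. At 2 µM, where 1.51% of all genes rose and 2.65% fell, 0 of the 13 rose and 2 fell, Vegfa (-0.50) and Ddit4 (-0.60). Without the first 0 µM library 7 differed, beside 14.1% of all genes. None of the 10 chaperone and protease mRNAs reached the median of this list at 10 µM, since the largest of them was 0.49. That median is high through the choice of the list, so that this comparison is no independent evidence either.

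Several chaperones of the cytosol fell at 10 µM. Of 13 tested, 6 fell and 0 rose against 0 µM, where 7.11% of all genes fell and 6.81% rose. The list median was -0.30, and the falls were led by Bag3 (-0.60), Dnajb1 (-0.43), Hsph1 (-0.88) and Dnaja1 (-0.55), which act with cytosolic Hsp70. Only 3 of the 13 passed with the 2 groups compared alone, when 8.56% of all genes differed. As many passed without the second or the third 0 µM library, beside 8.02% and 7.53% of all genes. With total counts alone 2 passed, beside 28.6% of all genes. At 2 µM 0 of 13 passed in edgeR or DESeq2, with a median of 0.15. An unadjusted p under 0.05 was found for 4, beside 21.3% of all genes. Without the first 0 µM library 4 differed, beside 14.1% of all genes. From 2 to 10 µM 7 fell, beside 11.9% of all genes, with a median of -0.38. Without the first 0 µM library 11 differed, beside 29.0% of all genes.

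The 12 chaperones of the endoplasmic reticulum had a list median of -0.17 at 10 against 0 µM. Of these 1 fell, Dnajc3 (-0.30, edgeR adjusted p = 0.0209), beside 7.11% of all genes. That call was lost without the third 0 µM library or either 10 µM library (0.0639 to 0.0846) and with total counts only (0.371), and the count of the list was 0 to 2 with each library left out. From 2 to 10 µM 2 of 12 fell, Dnajc3 (-0.37) and Dnajb11 (-0.47), the latter not without the second 10 µM library (edgeR adjusted p = 0.0979). Of all genes 11.9% fell from 2 to 10 µM. At 2 µM 0 of 12 passed in edgeR or DESeq2, with 1 at an unadjusted p under 0.05, beside 21.3% of all genes. Against 0 µM the ER and cytosolic lists thus had medians below 0 at 10 µM, and the 3 mitochondrial lists had medians from 0.07 to 0.13. Against 2 µM the medians were -0.12 for other mitochondrial chaperones, -0.11 for other proteases and -0.11 for ER chaperones. They were -0.38 for cytosolic chaperones and 0.05 for the 10 members. These medians are from TMM scaling, and those of the ER and cytosolic lists were not taken with total counts alone.

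Across the 8 libraries the members fell into more than one pattern, described here by Pearson's r of log2 CPM, which shares dose and library effects between all genes and carries no test. Hspd1 and Hspe1 were the closest pair (r = 0.98, and Hspe1 was the fifth most alike of all tested genes to Hspd1). Their models share 112 exonic bases, and the part of this in their r was not tested. Next came Hspd1 and Clpp (0.91) and Hspa9 and Dnaja3 (0.87). Among all tested genes Clpp ranked only 259 in likeness to Hspd1, and Dnaja3 206 in likeness to Hspa9. Hspd1 with Hspa9 gave 0.36 and Hspd1 with Dnaja3 0.20, and Lonp1 with Afg3l2 was the lowest of the 45 pairs at -0.43. The genes most alike to Hspd1 were Tpm2, Rad17 and Hnrnpdl (r from 0.986 to 0.989), those to Hspe1 Ecd, Rnps1 and Capza1 (0.981 to 0.99), those to Hspa9 Ece2, Tars and Hbs1l (0.976 to 0.986) and those to Dnaja3 Akr1c14, Slc25a40 and Atp6v0b (0.983 to 0.99). For Lonp1 they were Mpnd, Arsa and Esrra (0.965 to 0.987), for Clpp Psma3, Ppia and Sar1b (0.986 to 0.994) and for Clpx Suds3, Btbd10 and Clta (0.961 to 0.993). Values for Yme1l1 (Gm8773, Fau and Gm14305), Afg3l2 (Kif22, Morf4l1 and Hnrnpc) and Spg7 (Lrrfip2, H2-K1 and Oard1) were between 0.938 and 0.972.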

How the data were processed

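Mouse embryonic fibroblast libraries at 0, 2 and 10 µM RHPS4 (3, 3 and 2) were grouped by the dose in their labels. Reads had been trimmed with Trim Galore and cutadapt, aligned to mm10 with STAR 2.5.2a and counted per gene with featureCounts; the authors deposited raw counts, 1 file per library, without normalization, and the annotation and strand setting are not given in the sources used here. The test was edgeR 4.0.16 in R 4.3.3 (TMM, filterByExpr, glmQLFit, glmQLFTest), as 1 fit over all 8 libraries with the dose as only factor, and p values were adjusted by Benjamini-Hochberg over 14296 tested genes. "Rose" and "fell" mean an adjusted p under 0.05. A standard error is the log2 fold change divided by the square root of F, and intervals are 95%. Totals set the counting precision given above; 10 µM has only 2 libraries. For ratios, 0.5 was added to the counts, and libraries were permuted exactly (two-sided). Positions and exon lengths came from GENCODE vM21 and promoters from RefSeq, both of GRCm38. Procedures were tested on simulated counts. Other steps ran in Python 3.11.15 (pandas 2.3.3, scipy 1.17.1, numpy 2.4.6).

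The members, lists and tests were chosen with earlier results of these data known. Named were all members, up to 4 list genes per comparison that passed with the smallest p, direct partners of members, and for each member the 3 genes with the highest r. Alternatives were RLE scaling, TMM over nuclear genes, total counts, no filter, 10 counts in every library, DESeq2 1.42.0, the 2 groups alone, the replicate number as a block, a pseudocount of 5 for ratios, and each library left out. Protein sequences and promoters of Hspa9 and Afg3l2 were not used here.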

Additional observations from a re-analysis of the deposited data

How the results depend on the processing

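Scaling by total counts alone moved most values, since the median log2 fold change of all genes then became 0.07, 0.23 and 0.16 for 2 against 0 µM, 10 against 0 µM and 10 against 2 µM. With it 1, 7 and 3 of the 10 members differed, beside 9.56%, 28.6% and 25.2% of all genes, and 2 and 1 of them were DEGs in the comparisons of 10 µM with 0 and 2 µM, beside 6.39% and 7.04% of all genes. The lists of other mitochondrial chaperones, other proteases, regulators, integrated stress response targets and cytosolic chaperones had 4, 3, 2, 4 and 3 genes past the threshold at 2 against 0 µM, and at 10 against 0 µM the other mitochondrial chaperones had 7, the other proteases 6 and the cytosolic chaperones 2. The ER chaperones had 1 at 10 against 2 µM. Values that changed sign with it were 0.056 for Afg3l2 and 0.066 for Spg7 at 2 against 0 µM, 0.19 for Hspe1 at 10 against 0 µM, and 0.041 for Clpp and 0.10 for Clpx at 10 against 2 µM, and none of these 5 had passed the test.

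Other settings changed small lists at 10 against 0 µM. The share of all genes that differed in this comparison was 8.37% with no filter, 8.56% with only the 2 groups compared and 14.2% with RLE scaling. The shares with DESeq2 and with the replicate block lay between those with no filter and with RLE scaling. The other mitochondrial chaperones had 1 gene past the threshold with RLE scaling or no filter on low counts, and 0 with DESeq2, the replicate block or only the 2 groups compared. The ER chaperones had 2 with RLE scaling, no filter, DESeq2 or the replicate block and 0 with only the 2 groups compared, which left the cytosolic chaperones with 3. At 2 against 0 µM the ER chaperones had 1 when 10 counts were required in every library, beside 5.90% of all genes. The other mitochondrial chaperones had 0 with the replicate block, beside 3.33% of all genes.

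Leaving out each library in turn moved the members past the threshold from 0 to 3 at 2 against 0 µM, 0 to 3 at 10 against 0 µM and 1 to 5 at 10 against 2 µM, while the share of all genes past it went from 0.519% to 14.1%, 4.39% to 19.4% and 11.1% to 29.0%. At 2 against 0 µM the lists ranged from 0 to 6 for other mitochondrial chaperones, 0 to 1 for other proteases, 0 to 1 for regulators, 1 to 7 for stress response targets, 0 to 4 for cytosolic and 0 to 2 for ER chaperones. At 10 against 0 µM they ranged from 0 to 4 for other mitochondrial, 0 to 6 for cytosolic and 0 to 2 for ER chaperones, and at 10 against 2 µM from 1 to 6, 6 to 11 and 1 to 3 for the same lists and from 2 to 4 for regulators. Members whose log2 difference crossed 0 were Afg3l2 (-0.18 to 0.072), Spg7 (-0.058 to 0.052) and Lonp1 (-0.16 to 0.0088) at 2 against 0 µM. At 10 against 0 µM they were Hspe1 (-0.13 to 0.12), Hspd1 (-0.021 to 0.20), Afg3l2 (-0.31 to 0.31), Spg7 (-0.038 to 0.082), Clpp (-0.027 to 0.15) and Yme1l1 (-0.051 to 0.20), and at 10 against 2 µM Spg7 (-0.032 to 0.080), Yme1l1 (-0.12 to 0.13) and Afg3l2 (-0.29 to 0.33). The log2 ratio of Clpp to Clpx ranged from -0.098 to 0.076 and from -0.15 to 0.026 in the comparisons of 10 µM with 0 and 2 µM. That of Spg7 to Afg3l2 ranged from -0.083 to 0.20 at 2 against 0 µM, -0.36 to 0.37 at 10 against 0 µM and -0.38 to 0.34 at 10 against 2 µM. Where 1 library of 10 µM was left, it was assumed to vary like the other groups. Hspa9, Dnaja3 and Lonp1 kept their sign at 10 against 0 µM and 10 against 2 µM in every fit run. The cause of these changes was not tested.

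The replicate numbers of the labels were not taken as pairs. Same-numbered libraries at 0 and 2 µM had correlated deviations (r = 0.20, 0.08 and 0.16). Those with 10 µM had r from -0.15 to -0.02. The deviations of the 2 libraries at 10 µM from their mean are mirror images, so that these r say little about pairing. Of the members, the replicate block changed only the call of Hspe1 at 10 against 2 µM, and it turned the log2 ratio of Spg7 to Afg3l2 at 10 against 0 µM to -0.071. Depth limits little here, since the members had well over the floor in every library.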

Other observations

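A few values fall outside the comparisons above and were chosen after their values were seen, so they carry no test. Set against Hspd1 within a library, the log2 count ratio of Hspa9 averaged 0.50 at 0 µM, 0.31 at 2 µM and 0.85 at 10 µM, that of Dnaja3 averaged -3.71, -3.89 and -3.30, and that of Lonp1 averaged -2.07, -2.52 and -1.80. All 3 ratios were lowest at 2 µM and highest at 10 µM. The highest group mean was at 2 µM for Hspd1, Hspe1, Clpp and Clpx and at 10 µM for the other 6, and at 0 µM for none of the 10.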
